A study of Mus musculus with 5 samples.

Results

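The genes of the transcription machinery itself, the RNA polymerase subunits, the general transcription factors, the TBP-associated factors and the Mediator subunits, were followed in mouse CD8 T cells stimulated with antigen and B7-1 with or without IL-21. The members were the genes whose symbol starts with Polr or Gtf, or with Med or Taf followed by a digit, leaving out Taf1d, and where a gene had several probe sets, the brightest on average over the 5 arrays stood for it. On the array 55 such genes had a probe set of their own, among 8251 named genes in all, and the table of mouse genes used for the symbols holds 105 protein-coding genes that fit the rule. Of the 55 members 53 passed the filter on low signal, which kept probe sets above the 40th percentile of mean signal. The other two, Taf15 and Med12l, had signals between 7.53 and 25.8 and between 2.47 and 8.50 over the arrays and were not tested. A further 5 probe sets were listed with several genes, at least 1 of which fits the rule, and were not used.

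The cells came from lymph nodes of OT-1 mice, a C57BL/6 line aged 6 to 8 weeks in which the T cell receptor is a transgene that recognises an ovalbumin peptide on H-2Kb. CD44-low CD8 T cells were enriched by negative selection and cultured on latex microspheres coated with that peptide complex and with B7-1, which costimulates T cells through CD28, and human IL-2 was in every culture. The groups were 72 h with murine IL-21 (1 array), 48 h with murine IL-21 (2 arrays) and 48 h without IL-21 (2 arrays), each array labelled as a biological replicate. The labels do not say whether replicates came from separate mice or cultures, so the p-values rest on the differences among these arrays, which may be technical. Since 72 h cells without IL-21 were not analysed here, 72 h is compared only with 48 h in the presence of IL-21.

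Each array gave 1 MAS5 signal per probe set, an intensity that sums up the probes for 1 transcript. The trimmed mean signal before scaling was 66.4 on the 72 h array, 106 on each 48 h array that had IL-21, and between 65.8 and 75.9 on those without. All values below are therefore quantile-normalised signals. This makes every difference relative to the bulk of the 12422 probe sets that are no controls, of which 7453 were tested. Of 9 markers listed for CD8 T cells 8 were on the array, with signals between 393 and 1795. Their sum was 8462 on the 72 h array and between 5674 and 6378 on the 48 h arrays, and 3 of the 8, Cd3d, Cd3g and Thy1, rose at 72 h in limma. By sign 5 were higher and 3 lower, the lower ones being Cd8a (-0.51, SE 0.15), Cd5 (-0.52, SE 0.28) and Cd2 (-0.18, SE 0.22), which did not pass. Cd8a had 506 at 72 h, against 690.4 and 753 at 48 h with IL-21, and 414 and 401 without. The markers of CD4 T cells, B cells, myeloid cells and NK cells on the array were at 60.6 or below throughout and 0 of them passed. Their sums on the 72 h array were 87.1 for 5 B cell markers, 132 for 6 myeloid markers, 32.6 for Cd4 and 10.2 for Ncr1, against 60.5 to 91.0, 105 to 123, 9.39 to 15.9 and 1.98 to 5.14 on the 48 h arrays. The 3 erythroid and stromal markers on the array summed to 259 on the 72 h array and to between 182 and 272 on the 48 h arrays. Most of this was Col1a2, a collagen gene, with 213 at 72 h and between 146 and 204 at 48 h, and 0 of the 3 passed. The part of any of these in the results was not tested.

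RNA polymerase I makes the precursor of the large ribosomal RNAs in the nucleolus, polymerase II makes messenger RNAs, and polymerase III makes transfer RNAs and the small 5S ribosomal RNA. Each has a pair of large subunits that form the catalytic centre and a set of smaller ones, some of which are shared between the enzymes. General transcription factors place polymerase II at a promoter and open the DNA, TFIIIA and TFIIIC do the corresponding work for polymerase III, SL1 for polymerase I, and Mediator links polymerase II to factors bound at enhancers. Activated T cells grow and divide quickly, a state that is known for high ribosome production.

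Most members had lower signals on the 72 h array than at 48 h with IL-21. Of the 53 tested, 9 fell and 1 rose at an adjusted p under 0.05 in limma, which is 17.0% lower and 1.89% higher, against 7.12% called lower and 4.04% called higher among all probe sets. The genes that fell were Polr1a and Polr1e of polymerase I, Polr3d of polymerase III, Polr2f and Polr2h, which are shared by all 3 polymerases, and Gtf2f2, Gtf2h1, Gtf3c2 and Gtf2ird2. Gtf2i was the gene that rose. By sign alone 43 of the 53 were lower at 72 h (81.1%, against 50.7% of all probe sets) and 10 higher (18.9%, against 49.3%), and the median log2 difference was -0.38, against -0.01 over all probe sets. At an unadjusted p under 0.05 there were 20 lower (37.7%, against 15.6%) and 2 higher (3.77%, against 11.6%). The 72 h signal lay below all 4 arrays at 48 h for 34 members (64.2%, against 33.8%) and above all 4 for 6 (11.3%, against 30.4%). As this is bulk RNA, fewer cells of a kind and less RNA per cell cannot be told apart.

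The comparison set 1 array against 2, and the test assumed that the lone 72 h array varies like the 48 h groups. Leaving out either 48 h array with IL-21 left 0 members called, lower or higher, and so did a variance estimate without a trend on signal, while leaving out either array without IL-21 left 4 lower (Polr1a, Polr2f, Polr3d and Gtf2f2) and Gtf2i higher. The differences themselves kept their sign for all 10 called members in each of these fits.

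**Figure D1:**
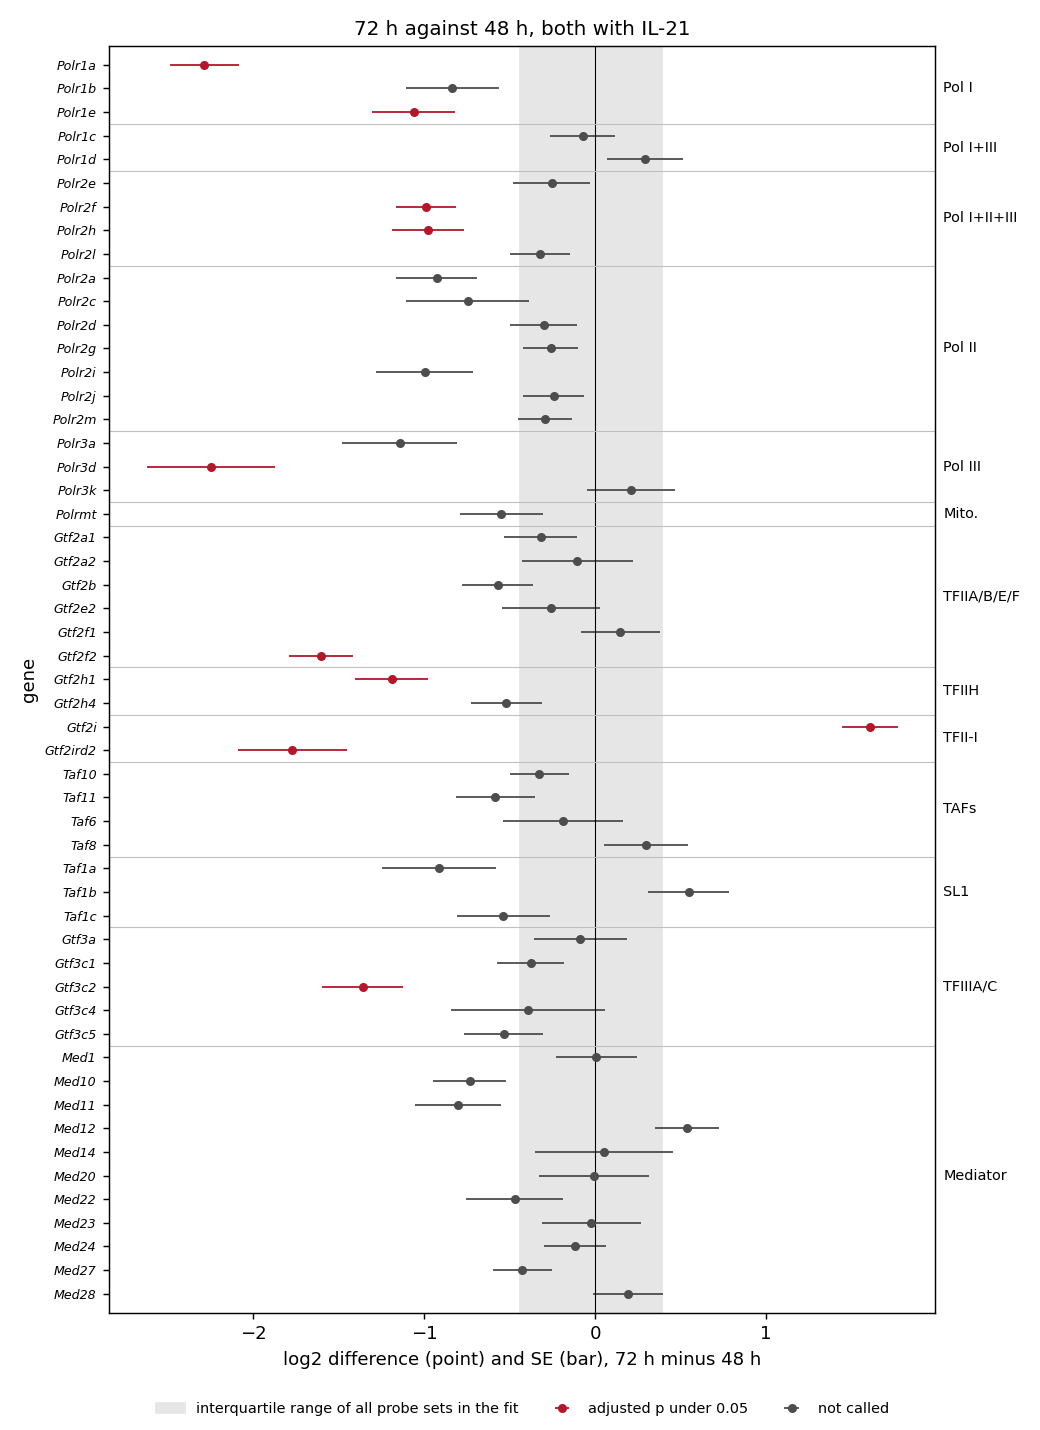
Log2 difference between 72 h and 48 h with IL-21 for the 53 members tested, with SE bars, by class (Pol, subunits of the RNA polymerases, Mito., the mitochondrial polymerase, TFII-I, the TFII-I family). The grey band is the interquartile range of all 7453 probe sets, from -0.44 to 0.39, and the called members in red lie outside it, 9 below and Gtf2i above.

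The polymerase subunits were kept apart by enzyme. Over all 20 of them the median log2 difference at 72 h was -0.65, with 18 lower and 2 higher by sign and 5 called lower, and over the 33 factors and coactivators it was -0.33, with 25 lower, 8 higher and 4 called lower.

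The 3 members found only in polymerase I, Polr1a, Polr1b and Polr1e, had lower signals at 72 h, while Znrd1, a polymerase I subunit outside the symbol rule, was higher by sign (0.54, SE 0.26). Polr1a, the largest subunit and part of the catalytic centre, had a signal of 34.3 at 72 h with IL-21, against 170.0 and 165 at 48 h with IL-21, and 173 and 182 at 48 h without. It fell 4.88-fold, with a log2 difference of -2.29 (SE 0.20, adjusted p = 0.00928 in limma), while the 4 arrays at 48 h differed little from each other. Polr1e, a subunit that works in initiation and elongation by polymerase I, had 30.9 at 72 h, against 62.1 and 66.8 at 48 h with IL-21, and 79.8 and 74.7 without. It fell by 1.06 on the log2 scale (SE 0.24, adjusted p = 0.0451 in limma), and its 72 h value was below all others. The call of Polr1e was lost with an offset of 16 signal units (-0.80), with arrays centred on the hybridisation controls and without a filter. Polr1b, the other large subunit, had 66.5 at 72 h, against 126 and 112 at 48 h with IL-21, and 127 and 91.5 without. Its 72 h array was also the lowest of the 5, but the difference of -0.84 (SE 0.27) did not pass (adjusted p = 0.112 in limma), and its probe set is of a kind that can match more than 1 gene of a family. The median of the 3 was -1.06. A dim probe set of Polr1a that did not pass the filter had 4.30 at 72 h, against 11.4 and 5.49 at 48 h with IL-21.

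The pair shared by polymerases I and III gave 0 calls in limma. Polr1c, 1 of the partners on which these enzymes assemble, had 219 at 72 h, against 237 and 225 at 48 h with IL-21, and 246 and 287 without (log2 difference -0.07, SE 0.19). Polr1d, the partner of Polr1c, had 207 at 72 h, against 150.4 and 191 at 48 h with IL-21, and 171 and 184 without (0.29, SE 0.22). Neither passed. In both cases the 72 h array lay just outside the range of the 48 h arrays, below it for Polr1c and above it for Polr1d. Another, dimmer probe set of Polr1c had the opposite sign (0.36, SE 0.52), with 45.5 at 72 h, above every 48 h array.

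Of the subunits shared by all 3 polymerases, 2 of 4 fell. Polr2f, a small subunit that helps hold the enzyme together, had 401 at 72 h, against 774 and 820.0 at 48 h with IL-21, and 661 and 817 without (-0.99, SE 0.18, adjusted p = 0.0246 in limma). Polr2h had 147 at 72 h, against 319 and 265 at 48 h with IL-21, and 412 and 346 without (-0.98, SE 0.21, adjusted p = 0.0386 in limma). Both genes had about 2-fold lower signals than at 48 h with IL-21, the folds being 1.99 and 1.97, and no array at 48 h reached down to the 72 h value. Polr2e had 113 at 72 h, against 146 and 124 at 48 h with IL-21, and 147 and 129.6 without (-0.26, SE 0.22). Polr2l, another small core subunit, had 225 at 72 h, against 288 and 277 at 48 h with IL-21, and 291 and 268 without (-0.32, SE 0.17). These 2 were lowest at 72 h as well, by less, and did not pass.

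Of the 7 subunits of polymerase II alone, 0 passed in limma, although all 7 were lower by sign, with a median of -0.30 and 2 of them at an unadjusted p under 0.05. Polr2a, the largest subunit, whose tail carries the phosphorylation marks of the transcription cycle, had 335 at 72 h, against 534 and 761 at 48 h with IL-21, and 542 and 484 without. Its log2 difference was -0.93 (SE 0.24, adjusted p = 0.0608 in limma), and between -1.19 and -0.67 when each 48 h array was left out in turn, since the 2 arrays with IL-21 differed. Polr2i, a subunit that acts in the fidelity of transcription, had 43.0 at 72 h, against 78.2 and 94.2 at 48 h with IL-21, and 82.5 and 111 without (-0.998, SE 0.283, adjusted p = 0.0791 in limma). The 72 h value was the lowest of the 5 for both genes.

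The remaining polymerase II subunits differed less or had low signals. Polr2c had 26.1 at 72 h, against 51.2 and 37.5 at 48 h with IL-21, and 29.6 and 23.0 without (-0.74, SE 0.36), so its 72 h value lay between those without IL-21. Polr2j, the assembly partner of Polr2c, had 206 at 72 h, against 238 and 249 at 48 h with IL-21, and 204 and 196 without (-0.24, SE 0.18). For both of these the high values were the 48 h arrays with IL-21. Polr2d had 171 at 72 h, against 203 and 219 at 48 h with IL-21, and 209 and 184 without (-0.30, SE 0.20). Polr2g had 560.0 at 72 h, against 619 and 727 at 48 h with IL-21, and 733 and 721 without (-0.26, SE 0.16). Polr2d and Polr2g form the stalk of the enzyme, and both were lowest at 72 h by a small margin. Polr2m, a protein that binds polymerase II and restrains it unless Mediator is present, had 542 at 72 h, against 627 and 704 at 48 h with IL-21, and 586 and 633 without (-0.30, SE 0.16).

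In polymerase III the differences had both signs, and 1 of 3 members passed. Polr3d, a subunit that acts in initiation and termination, had 8.83 at 72 h, against 38.9 and 45.2 at 48 h with IL-21, and 30.2 and 44.4 without. It fell by 2.25 on the log2 scale (SE 0.38, adjusted p = 0.0212 in limma). This signal at 72 h is low and may be near background, so the size is uncertain, and with an offset of 16 signal units it was -1.28. Polr3a, the largest subunit, had 17.6 at 72 h, against 35.3 and 43.0 at 48 h with IL-21, and 51.2 and 38.4 without (-1.14, SE 0.34, adjusted p = 0.0867 in limma), again lowest at 72 h. Polr3k, a small subunit needed for cleaving the RNA, had 172 at 72 h, against 161 and 138 at 48 h with IL-21, and 155 and 115 without (0.21, SE 0.26), and its other probe set had the opposite sign (-0.63, SE 0.34). Polrmt, the single-chain polymerase of mitochondria, had 54.4 at 72 h, against 79.8 and 79.3 at 48 h with IL-21, and 86.4 and 72.3 without (-0.55, SE 0.24). It did not pass, and another, dimmer probe set gave 0.48 (SE 0.70).

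**Figure D2:**
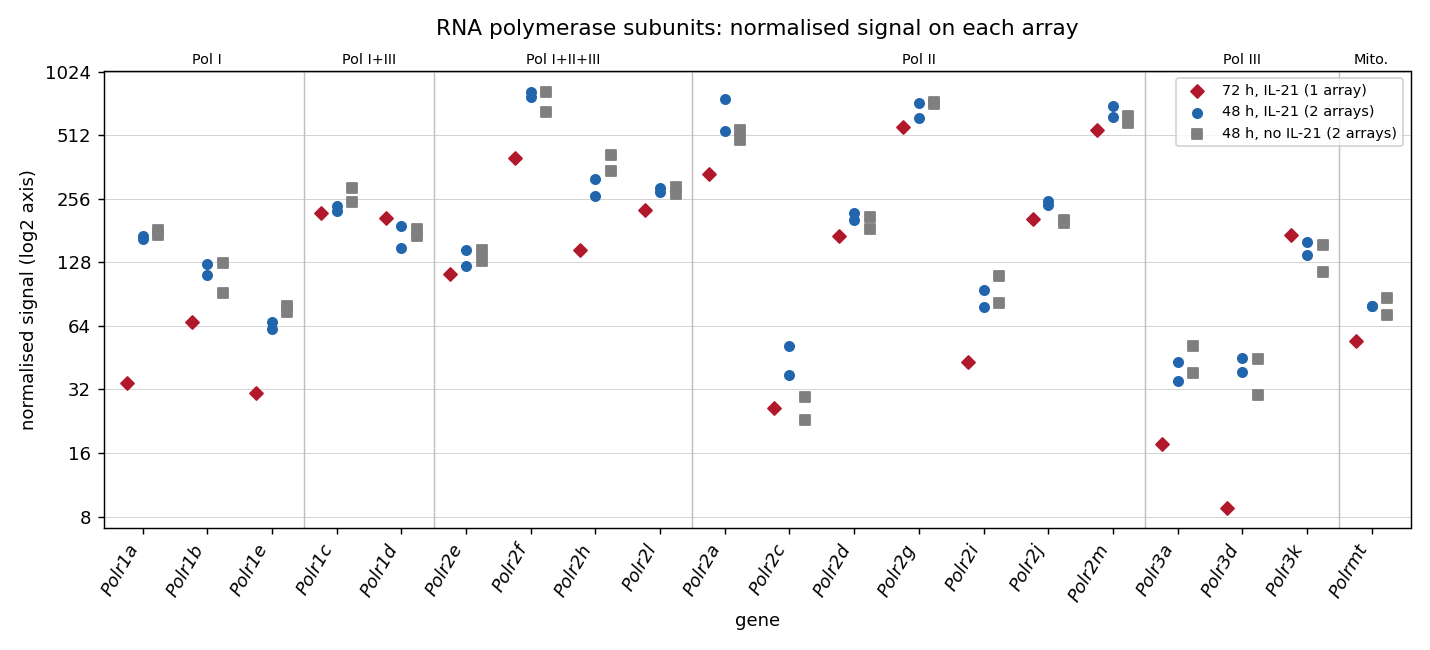
Normalised signal of the 20 polymerase subunits on each of the 5 arrays, on a log2 axis, grouped by the polymerases they belong to (Mito., the mitochondrial polymerase). The 72 h array is the lowest of the 5 for the 3 polymerase I subunits and for the 4 subunits shared by all polymerases, from Polr1e at 30.9 to Polr2f at 401. It is also the lowest for 5 of the 7 subunits of polymerase II alone, 2 of the 3 of polymerase III alone, Polr1c and Polrmt.

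The promoters of the called polymerase subunits that the RefSeq table of promoter windows holds, and that of Gtf2i, are given here because these genes carried the 72 h calls. Each window runs from 250 bases before to 50 bases after the start of the gene in build GRCm38.p6, read 5′ to 3′ on the strand of the gene. Capitals mark every match, on either strand, to the E-box CACGTG, the motif of MYC and other basic helix-loop-helix factors, to CCGGAAG, a motif of ETS factors, and to GGGCGG, the GC box bound by SP1.
Polr1a, chr6:71908803-71909102, plus strand: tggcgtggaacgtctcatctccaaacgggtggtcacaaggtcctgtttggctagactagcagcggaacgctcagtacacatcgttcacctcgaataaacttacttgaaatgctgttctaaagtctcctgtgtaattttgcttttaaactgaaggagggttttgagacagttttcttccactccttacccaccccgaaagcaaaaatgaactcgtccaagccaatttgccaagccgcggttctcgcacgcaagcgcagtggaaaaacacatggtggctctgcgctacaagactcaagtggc
Polr1e, chr4:45018359-45018658, plus strand: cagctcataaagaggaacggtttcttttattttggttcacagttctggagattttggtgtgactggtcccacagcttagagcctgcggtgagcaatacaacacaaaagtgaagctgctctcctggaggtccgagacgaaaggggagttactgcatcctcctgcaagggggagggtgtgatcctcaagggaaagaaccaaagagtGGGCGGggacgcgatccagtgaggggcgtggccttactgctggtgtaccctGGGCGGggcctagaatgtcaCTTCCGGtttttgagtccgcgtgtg
Polr2f, chr15:79141075-79141374, plus strand: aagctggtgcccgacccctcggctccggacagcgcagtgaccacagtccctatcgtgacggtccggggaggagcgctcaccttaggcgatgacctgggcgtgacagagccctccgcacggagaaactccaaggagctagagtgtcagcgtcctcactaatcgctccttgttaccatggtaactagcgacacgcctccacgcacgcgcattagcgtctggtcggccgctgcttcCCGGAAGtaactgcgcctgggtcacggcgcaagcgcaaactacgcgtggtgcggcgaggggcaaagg
Polr2h, chr16:20717576-20717875, plus strand: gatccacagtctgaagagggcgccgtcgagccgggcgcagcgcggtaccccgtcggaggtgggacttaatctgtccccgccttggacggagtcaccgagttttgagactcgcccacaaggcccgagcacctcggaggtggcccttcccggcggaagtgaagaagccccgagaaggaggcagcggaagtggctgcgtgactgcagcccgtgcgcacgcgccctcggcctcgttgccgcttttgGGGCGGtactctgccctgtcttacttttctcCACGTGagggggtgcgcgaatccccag
Gtf2i, chr5:134314711-134315010, minus strand: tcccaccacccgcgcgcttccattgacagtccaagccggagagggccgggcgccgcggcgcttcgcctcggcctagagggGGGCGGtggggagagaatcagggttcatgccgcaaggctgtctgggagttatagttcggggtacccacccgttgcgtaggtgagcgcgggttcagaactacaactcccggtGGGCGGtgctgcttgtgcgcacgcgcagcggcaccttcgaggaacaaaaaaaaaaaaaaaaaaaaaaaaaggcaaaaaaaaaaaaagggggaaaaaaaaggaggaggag
In these windows Polr1a held none of the 3 motifs. Polr1e held a pair of GC boxes and 1 ETS motif on the opposite strand, with its last base at position 282 of the window, Polr2f held 1 ETS motif, the first of 2 windows of Polr2h a GC box and, at positions 274 to 279, the E-box, and Gtf2i 2 GC boxes. The table matched 48 of the 55 members, with 57 windows, since some genes have several starts. The E-box was in 7 of the 57 windows (12.3%), against 10.3% of the 5854 windows of genes tested here and 7.15% of all 32851 windows. The ETS motif was in 20 (35.1%), against 18.4% and 8.86%, and the GC box in 30 (52.6%), against 62.2% and 35.7%. Counted by gene, 7 of the 48 matched members held an E-box, 19 an ETS motif and 29 a GC box. Among the 8 genes called lower that had a window, 3 held an E-box, 4 an ETS motif and 3 a GC box. No share by gene was taken over all tested genes, so these counts cannot be set against the shares of windows. A match describes the letters only.

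Among the general transcription factors of polymerase II, Gtf2f2 and Gtf2h1 fell. Gtf2f2, the smaller subunit of TFIIF, which escorts the polymerase to the promoter, had 83.7 at 72 h, against 261 and 248 at 48 h with IL-21, and 185 and 186 without. It fell 3.04-fold (log2 difference -1.60, SE 0.19, adjusted p = 0.0105 in limma), the 72 h array being well below both 48 h groups. Gtf2f2 was measured by a probe set of a kind picked under relaxed rules. Its partner Gtf2f1, the larger TFIIF subunit, had 210.0 at 72 h, against 177 and 203 at 48 h with IL-21, and 187 and 242 without (0.15, SE 0.23), within the range of the 48 h arrays. Gtf2h1, a core subunit of TFIIH, the factor that opens the promoter and also serves DNA repair, had 71.6 at 72 h, against 172 and 155 at 48 h with IL-21, and 178 and 206 without (-1.19, SE 0.21, adjusted p = 0.0246 in limma). Gtf2h4, another TFIIH core subunit, had 163 at 72 h, against 214 and 256 at 48 h with IL-21, and 167 and 182 without (-0.52, SE 0.21), and did not pass. Gtf2b, the bridge between TBP and polymerase II, had 188 at 72 h, against 251 and 309.6 at 48 h with IL-21, and 269 and 245 without (-0.57, SE 0.21), the lowest of the 5 without passing. Gtf2a1, Gtf2a2 and Gtf2e2, subunits of TFIIA and TFIIE, differed by -0.32, -0.11 and -0.26, and the last 2 lay within the range of the 48 h arrays.

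The TFII-I family, which binds DNA at specific sites and is no part of the basal machinery, held calls in both directions. Gtf2i, which encodes TFII-I, a factor that relays signals from surface receptors, had 1243 at 72 h, against 381 and 436 at 48 h with IL-21, and 414 and 406 without. It rose 3.05-fold (log2 difference 1.61, SE 0.16, adjusted p = 0.00928 in limma). Its other probe set, of a design shared between transcripts, had 632 at 72 h, against 199.9 and 178 at 48 h with IL-21, and 175 and 207 without, and rose by 1.74 (SE 0.20, adjusted p = 0.0105 in limma), so both probe sets stood apart at 72 h in the same direction. Gtf2ird2, a relative of Gtf2i, had 12.2 at 72 h, against 43.3 and 39.8 at 48 h with IL-21, and 30.4 and 33.6 without (-1.77, SE 0.32, adjusted p = 0.0246 in limma). Its other probe set gave 0.34 (SE 0.57), the opposite sign, and both have low signals, so the fall rests on 1 of 2 probe sets.

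Of the TBP-associated factors that fit the symbol rule, 7 were tested and gave 0 calls in limma. Taf1d, left out by that rule, fell by 1.29 on the log2 scale (adjusted p = 0.0187 in limma). In TFIID, the complex that recognises core promoters, and its relatives, Taf11 had 99.4 at 72 h, against 134 and 166 at 48 h with IL-21, and 127 and 116 without (-0.58, SE 0.23). Taf10, which also belongs to the SAGA coactivator, had 390.1 at 72 h, against 451 and 531 at 48 h with IL-21, and 519.7 and 548 without (-0.33, SE 0.17). Both were lowest at 72 h. Taf6 and Taf8 differed by -0.19 and 0.30, with 72 h values within the range of the 48 h arrays. In SL1, the factor that places polymerase I on ribosomal DNA, Taf1a had 15.8 at 72 h, against 33.5 and 26.5 at 48 h with IL-21, and 38.6 and 40.5 without (-0.91, SE 0.33). Taf1b had 153 at 72 h, against 107 and 102 at 48 h with IL-21, and 75.3 and 93.1 without (0.55, SE 0.23). Taf1c had 51.9 at 72 h, against 65.7 and 86.6 at 48 h with IL-21, and 70.0 and 64.2 without (-0.54, SE 0.27). Thus Taf1b was highest and both Taf1a and Taf1c were lowest at 72 h, and across these 7 TAFs 2 were at an unadjusted p under 0.05.

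Among the polymerase III factors Gtf3c2 fell. Gtf3c2, a subunit of TFIIIC, which binds the promoters inside transfer RNA genes, had 38.5 at 72 h, against 95.4 and 103 at 48 h with IL-21, and 73.8 and 84.8 without (-1.36, SE 0.24, adjusted p = 0.0234 in limma). Gtf3c5, another TFIIIC subunit, had 64.6 at 72 h, against 94.6 and 92.7 at 48 h with IL-21, and 70.5 and 80.6 without (-0.54, SE 0.23). Both were lowest at 72 h and highest at 48 h with IL-21. Gtf3c1, the largest subunit, Gtf3c4 and Gtf3a, the 5S gene factor TFIIIA, differed by -0.38, -0.39 and -0.09 and did not pass, and another probe set of Gtf3a had the opposite sign (0.37, SE 0.28).

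Mediator gave 0 calls in limma among the 11 Med genes tested, with 7 lower and 4 higher by sign and 4 at an unadjusted p under 0.05. The median was -0.02, and 0.05 with arrays centred on the hybridisation controls, so its sign depended on the scaling. Centring on these controls also raised the median of all probe sets, to 0.12. Relative to all probe sets the Mediator median was -0.01 and -0.06 in these settings. Med11, in the head module, had 57.4 at 72 h, against 113 and 89.3 at 48 h with IL-21, and 112 and 98.8 without (-0.80, SE 0.25, adjusted p = 0.0998 in limma). Med10, in the middle module, had 104 at 72 h, against 165 and 181 at 48 h with IL-21, and 189.6 and 159.9 without (-0.73, SE 0.21, adjusted p = 0.0841 in limma). These were lowest at 72 h. Med12, in the kinase module that can detach from Mediator, had 310.4 at 72 h, against 199.7 and 229 at 48 h with IL-21, and 184 and 185 without (0.54, SE 0.19), the highest of the 5. Med1, the subunit that nuclear receptors contact, had a difference of 0.01 (SE 0.24). Med22 and Med27 differed by -0.47 and -0.43, Med24 and Med23 by -0.12 and -0.02, Med20 by -0.01, Med14 by 0.05 and Med28 by 0.19.

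**Figure D3:**
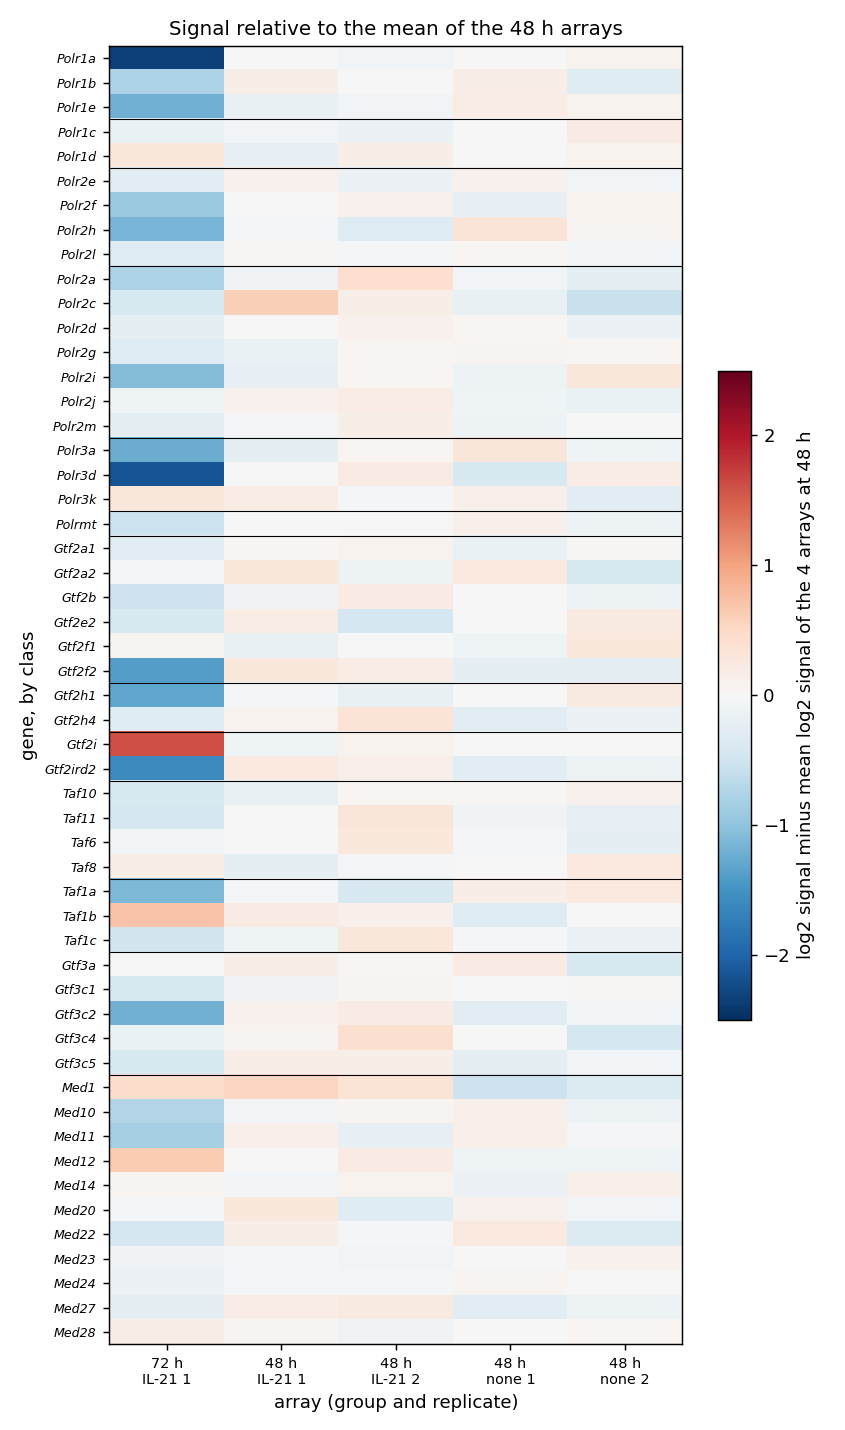
Log2 signal of the 53 members on each array minus the mean log2 signal of the 4 arrays at 48 h, members in rows by class and arrays in columns. The left column, 72 h with IL-21, is lower than all 4 others for 34 members and higher than all 4 for 6, among them Gtf2i.

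Several members had more than 1 probe set, and these did not always run together. Of 12 such genes, 9 had another probe set that passed the filter, and at 72 h 3 of these 9 had the sign of the brighter one, those of Gtf2i, Polr2a and Med20. For Polr2a the other gave -0.41 (SE 0.23). With all probe sets of a gene averaged, 7 members were called lower, all among the 9, and Polr1a and Gtf2ird2 were not. At 48 h 3 of the 9 other probe sets that passed the filter had the sign of the brighter one, those of Gtf2i, Polr2a and Polrmt.

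Genes of the same machinery that bear other symbols were tested in the same fit. Of 69 listed genes the array held 46, of which 43 passed the filter, and of these 8 fell and 0 rose in limma at 72 h (8 of 43, against 7.12% lower among all probe sets), with a median of -0.26 and 30 lower and 13 higher by sign. This list was drawn up with earlier results of these arrays known. For polymerase I, Ubtf, which opens ribosomal DNA for transcription, had 187 at 72 h, against 362 and 366 at 48 h with IL-21, and 314 and 336 without (-0.96, SE 0.17, adjusted p = 0.0234 in limma). Rrn3, which makes polymerase I competent to start, had 40.1 at 72 h, against 94.0 and 81.6 at 48 h with IL-21, and 113 and 91.8 without (-1.13, SE 0.25, adjusted p = 0.0435 in limma). Together with Polr1a and Polr1e, these factors were lowest at 72 h, as was Taf1d of SL1 (-1.29, SE 0.20), while Ttf1, the terminator-binding factor, differed by 0.15 and Znrd1, a small polymerase I subunit, by 0.54 (SE 0.26).

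Of 6 listed factors that help to assemble or import polymerases and passed the filter, Gpn1, Ruvbl1 and Ruvbl2 fell. The other 3 did not pass, and differed by -0.84 (Rpap3, SE 0.27, adjusted p = 0.109 in limma), -0.27 (Rpap1, SE 0.24) and 0.19 (Gpn3, SE 0.45). Gpn1, a GTPase needed to bring polymerase II into the nucleus, had 58.3 at 72 h, against 191 and 184 at 48 h with IL-21, and 180.0 and 193 without (-1.69, SE 0.20, adjusted p = 0.0105 in limma). Ruvbl1, an ATPase of the chaperone complex that assembles polymerases and other machines, had 133 at 72 h, against 480.1 and 452 at 48 h with IL-21, and 534 and 436 without (-1.81, SE 0.19, adjusted p = 0.00928 in limma). Its partner Ruvbl2 had 334 at 72 h, against 700.0 and 633 at 48 h with IL-21, and 738 and 729 without (-0.99, SE 0.15, adjusted p = 0.0175 in limma). Gpn1, Ruvbl1 and Ruvbl2 were all below every 48 h array. With all probe sets of a gene averaged Ruvbl1 was not called, while Gpn1 and Ruvbl2 were. The other calls were Nelfa, a subunit of the pausing factor NELF (-0.83, SE 0.18), and Cdk8, the kinase of the Mediator kinase module (-0.78, SE 0.18). Tbp, the TATA-binding protein, differed by 0.56 (SE 0.33) and Maf1, a repressor of polymerase III, by 0.74 (SE 0.28, adjusted p = 0.158 in limma). Neither passed. Of the 43 listed genes tested, 0 were called without a variance trend and 4 with arrays centred on the hybridisation controls. The 8 calls went to 0 without either 48 h array with IL-21 and to 4 without either array lacking it.

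At 48 h the question was what IL-21 added. Of the 53 members 0 passed in limma in either direction (0.0% of all probe sets were called), with adjusted p between 0.967 and 0.998. At an unadjusted p under 0.05 there were 5 members, all higher with IL-21 (9.43%, against 2.55% of all probe sets), and 0 lower (against 1.84%). The median log2 difference was 0.10, against -0.01 over all probe sets, with 30 members higher by sign (56.6%, against 48.8%) and 23 lower (43.4%, against 51.2%). The groups did not overlap for 15 members that were higher with IL-21 (28.3%, against 15.9% of all probe sets) and for 9 that were lower (17.0%, against 17.9%). The member median depended on single arrays, and was 0.00033 without the second array lacking IL-21.

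The 5 members with an unadjusted p under 0.05 at 48 h were Med1, Polr2c, Gtf2f2, Gtf2h4 and Med27. Med1 had 110.0 and 96.0 with IL-21, against 53.3 and 59.997 without (log2 difference 0.86, SE 0.19, unadjusted p = 0.00426 and adjusted p = 0.967 in limma) and its groups stood clear of each other. The 72 h array, at 103, lay between the 48 h arrays with IL-21. Polr2c had 51.2 and 37.5 with IL-21, against 29.6 and 23.0 without (0.75, SE 0.29), low signals that may be near background. Gtf2f2 had 261 and 248 with IL-21, against 185 and 186 without (0.46, SE 0.15), and Gtf2h4 had 214 and 256, against 167 and 182 (0.43, SE 0.17). Med27 had 372 and 382 with IL-21, against 271 and 299.7 without (0.40, SE 0.14). In each of these 5 the groups did not overlap, but the test was passed by none of them. The probe sets of Polr2c, Gtf2f2 and Med27 are of a kind picked under relaxed rules.

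By class, the TFIIIA and TFIIIC genes had the highest median at 48 h among the classes with at least 3 members tested, 0.31, with 4 of 5 higher by sign. Of these 4, Gtf3a (0.17, SE 0.22) had another probe set with the opposite sign (-0.18, SE 0.23). With all probe sets of a gene averaged, 4 genes of the class passed the filter and the median was 0.22. Gtf3c4 had 18.7 and 23.4 with IL-21, against 17.6 and 13.2 without (0.45, SE 0.37), and Gtf3c2 had 95.4 and 103, against 73.8 and 84.8 (0.32, SE 0.19). Gtf3c5 had 94.6 and 92.7 with IL-21, against 70.5 and 80.6 without (0.31, SE 0.19). These 3 TFIIIC genes did not overlap between the groups. They were among the 15 members higher with IL-21 without overlap (28.3%, against 15.9% of all probe sets). The median was -0.08 for polymerase I, 0.13 for polymerase II and 0.16 for polymerase III, -0.01 for the subunits shared by all 3, and -0.01 for Mediator. With arrays centred on the hybridisation controls, which lowered the median of all probe sets to -0.19, the TFIIIA and TFIIIC median was 0.13, while those of polymerases II and III turned to -0.02 each. In the TFII-I family Gtf2ird2 had 43.3 and 39.8 with IL-21, against 30.4 and 33.6 without (0.38, SE 0.26). Its other probe set had the opposite sign (-0.54, SE 0.46), with groups that overlapped. Gtf2i differed by -0.01 (SE 0.13).

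On the lower side, Taf1a had 33.5 and 26.5 with IL-21, against 38.6 and 40.5 without (-0.41, SE 0.27), and Polr2h had 319 and 265, against 412 and 346 (-0.38, SE 0.17). Polr1e had 62.1 and 66.8 with IL-21, against 79.8 and 74.7 without (-0.26, SE 0.20), and Taf8 had 62.2 and 69.9, against 73.0 and 85.7 (-0.26, SE 0.20). None of the 4 overlapped between the groups. They were among the 9 lower members without overlap, a share near that of all probe sets (17.0%, against 17.9%). Gtf2h1 differed by -0.23, Taf1b by 0.32 and Taf11 by 0.30, all without overlap, and Gtf2e2, which overlapped, by -0.24. Med12, also a member with no overlap, differed by 0.21 (SE 0.16). The other transcription genes gave 0 calls in limma as well, and 0 of 43 had an unadjusted p under 0.05.

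**Figure D4:**
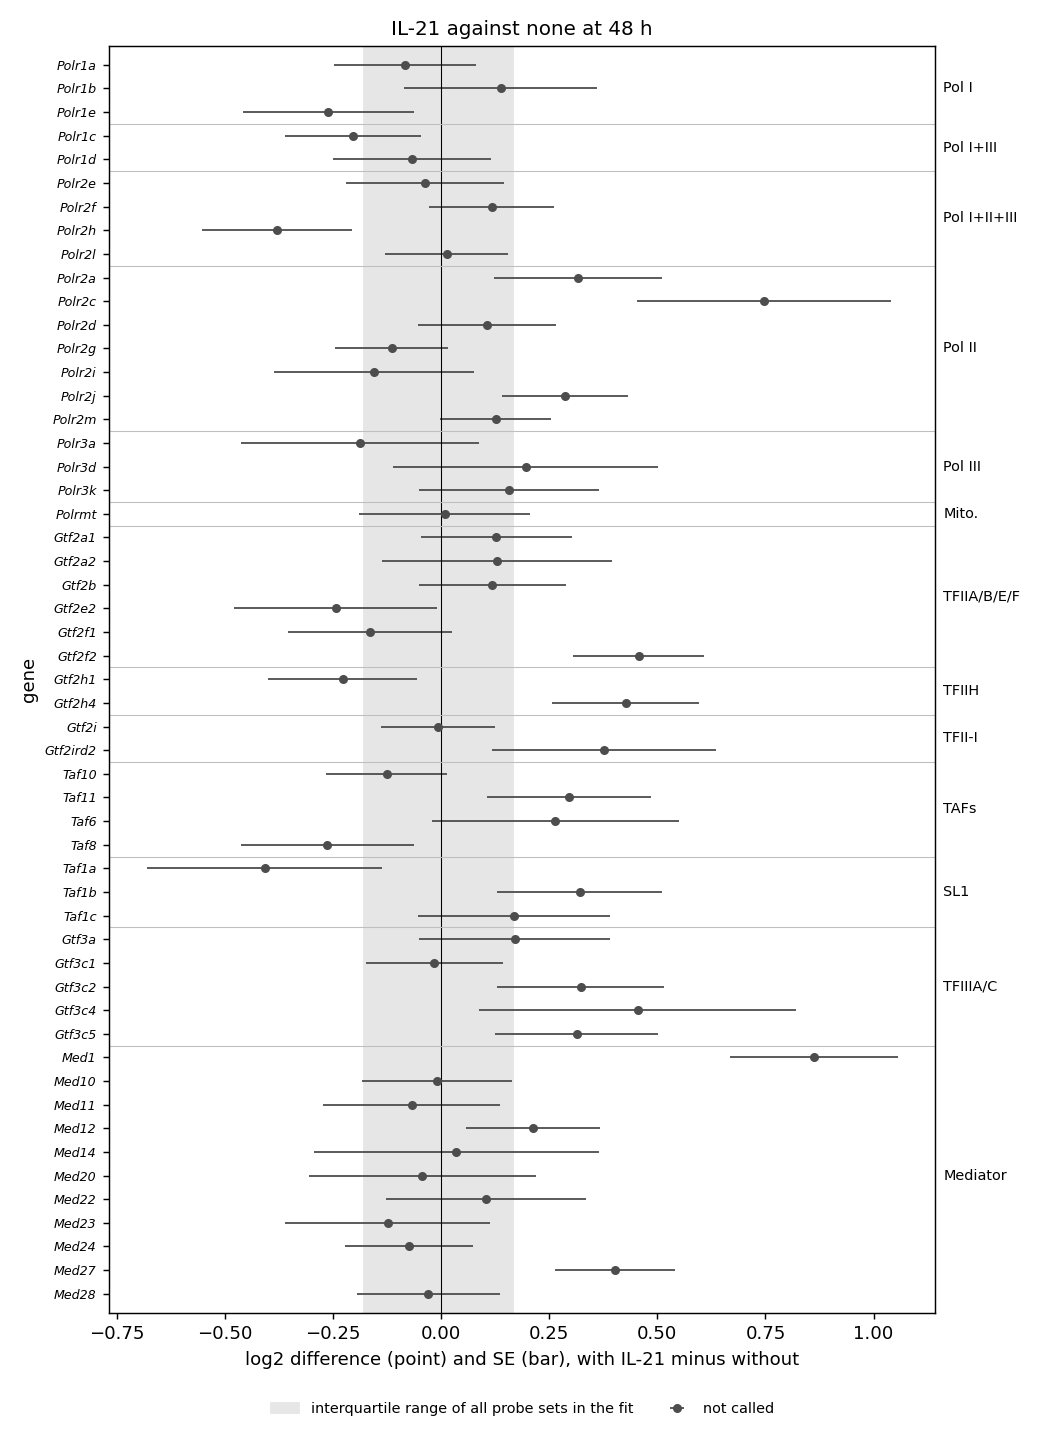
Log2 difference between cells with and without IL-21 at 48 h for the 53 members tested, with SE bars, by class as in the plot of 72 h differences. The grey band is the interquartile range of all 7453 probe sets, from -0.18 to 0.17, and no member was called. Med1 lies farthest to the right at 0.86.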

How the data were processed

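Cells were profiled on Affymetrix MG-U74Av2 arrays, from biotin-labelled copies of total RNA. The authors deposited 1 MAS5 signal intensity per probe set and array on a linear scale, and the values were not scaled between arrays, as their trimmed means show. Probe sets were named from the platform's annotation, with symbols updated through RefSeq: of 12422 probe sets that are no controls, 10833 had 1 gene, 396 several and 1193 none. The 10th percentile of signal (1.53) was added, and log2 values were quantile-normalised. Group means were fitted with limma 3.58.1 in R 4.3.3 over all 5 arrays (2 residual degrees of freedom, variance trend), with Benjamini-Hochberg adjustment over the 7453 probe sets above the 40th percentile of mean signal. The same fit was tested on simulated data with 200 changed probe sets in each simulation. A log2 change of 1 was called in 25.3% of cases at 72 h and 44.1% at 48 h, and a change of 2 in 81.5% and 83.5%. Probe sets without a change were called in 0.11% and 0.13%. A gene that did not pass may thus still have changed. Both comparisons share the 48 h arrays with IL-21, so they are not independent. Alternatives were other offsets, scalings and filters, no variance trend, gene means, a replicate block and leaving out arrays. Named genes were all members and the called genes of the list of other transcription genes, with examples of those not called. The members and all lists, marker lists included, were chosen with earlier results of these data known. The deposited values carry no depth, and the number of arrays limits the precision.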

Additional observations from a re-analysis of the deposited data

How the results depend on the processing

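At 72 h the count of members called lower was 9, and it was 6 to 9 with a floor in place of the offset, an offset of 16, arrays centred on the median or on the hybridisation controls, no filter, a filter at the 60th percentile, or gene means. It was 35 without scaling, 0 without a variance trend and 0 to 4 when an array was left out. The count called higher was 0 without a variance trend and 0 to 1 when an array was left out. Over all probe sets 0 were called at 72 h without a variance trend or without either 48 h array with IL-21, in limma, with 1843, 1696 and 1752 at an unadjusted p under 0.05. At 48 h 12 members were called higher without scaling and 0 under each other setting that kept all 5 arrays. Without scaling, many of the 7453 probe sets were called as well, 2027 lower at 72 h and 696 higher at 48 h. The median member difference at 72 h was -0.32 with an offset of 16, -1.07 without scaling, -0.66 on median-centred arrays, -0.33 with the stricter filter, -0.33 with gene means and -0.45 to -0.35 when an array was left out. At 48 h it was 0.66 without scaling, 0.13 on median-centred arrays, -0.10 on control-centred arrays, 0.0588 with the stricter filter, 0.0630 with gene means and 0.00033 to 0.0692 when an array was left out. The same scalings gave the median of all probe sets as -0.58, -0.17 and 0.12 at 72 h and 0.57, 0.04 and -0.19 at 48 h (unscaled, median-centred and control-centred). Relative to that median, the member median lay between -0.48 and -0.29 at 72 h and between 0.02 and 0.11 at 48 h over all settings. Why the settings differ was not tested. With the replicate number as a block, 16 members were called lower at 72 h, the 9 among them, and 2 higher, and over all probe sets 1000 and 860, with 2 and 9 at 48 h. The labels do not say that a number ties arrays across groups, so the arrays were not treated as paired. The difference between replicates 1 and 2 correlated between the 48 h groups at 0.361 over 7453 probe sets and at 0.206 over the 53 members. Such a correlation is no reason against pairing, and whether equal numbers mark a shared experiment was not tested. MAS5 detection calls were not used, so the low signals of Polr3d, Gtf2ird2, Polr3a, Taf1a, Gtf3c4, Med14, Taf6, Polr2c and Med23 may be near background.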
